A study of Mus musculus with 21 samples.

Results

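The 10 core clock genes Bmal1, Clock, Npas2, Cry1, Nfil3, Per2, Per3, Nr1d1, Nr1d2 and Dbp were followed in the transcriptome of sorted mouse Paneth cells, the granule-filled cells at the base of the small-intestinal crypts that secrete α-defensins. They were 10 of the 55414 gene identifiers in the counts table. The first 5, Bmal1 (also called Arntl) to Nfil3, are called the positive arm here and the last 5 the negative arm. The genes were chosen by name, with their levels in these same libraries already known, so their levels and fold changes in all 6 groups are given as a description. Members that passed a test run on all genes are counted beside the share of all genes, and nothing is read from those counts. All 10 passed the filter on low counts.

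The 21 libraries were bulk RNA-seq of Paneth cells sorted by FACS from the small intestine. Mice drank Milli-Q water or water with 200 mM ZnSO4 for 7 weeks, in 3 microbiome contexts. SPF (specific pathogen free) mice gave 3 libraries on Milli-Q and 3 on zinc. SPF mice that also received broad-spectrum antibiotics over the last 3 weeks gave 4 on Milli-Q and 4 on zinc, and germ-free mice gave 3 on Milli-Q and 4 on zinc. All groups share the sort and the library kit, and the study's methods describe its mice as C57BL/6J, while age and sex are not given in the sources used here. As for replication, the labels call the replicates biological. The hour at which each animal was killed was not given either, and clock transcripts depend on it, so hour of collection, animal facility and microbiome context cannot be told apart in these groups.

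Library totals ran from 9888174 to 16896714 counts. Defa genes, the α-defensins, took 24.2% to 44.5% of the counts of a library, and all 7 Paneth cell markers were detected in every group. The immune marker Csf1r and the stromal marker Col3a1 had no count in any group. Other members of their lists of 5 did, as 2 or 3 immune and 1 to 3 stromal and endothelial markers were detected per group. TMM factors, which scale each library for its composition, were 0.522 to 0.834 in germ-free libraries and 0.996 to 1.49 in the others. Levels are given in CPM, the counts of a gene scaled to a common library size with TMM factors. Immune markers summed to at most 7.21 CPM in a library, and stromal and endothelial markers to at most 0.775 CPM. In bulk samples, fewer cells of a type and less RNA per cell cannot be told apart.

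The molecular clock is a feedback loop that runs in nearly every mammalian cell. Bmal1 pairs with Clock or with its paralog Npas2, and the pair binds E-boxes and drives transcription of the Per and Cry genes, of Nr1d1 and Nr1d2, and of Dbp. Per and Cry proteins then repress the pair. Nr1d1 and Nr1d2 encode REV-ERB nuclear receptors that repress Bmal1, Npas2 and Nfil3 through ROR elements, where the ROR receptors activate. Nfil3 represses and Dbp activates the D-box genes. The arms are named here for the broad part of the day in which the transcripts usually peak, and genes of one arm need not peak at the same hour. Cry1 and Nfil3 encode repressors, but their transcripts usually peak nearer to those of Bmal1 than to those of the negative arm. In the intestine, feeding and the microbiota are both known to act on the clock of the epithelium.

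Promoter letters are shown for the members that carry a clock element, since the loop acts through these elements. The 250 bases before the annotated start of the canonical transcript of a gene were read from GRCm39. This was done for 11972 promoters of tested protein-coding genes, and 3 elements were searched on both strands. The E-box CACGTG, bound by the Bmal1 pair, was in 7.97% of these promoters, the D-box TTATGTAA or TTACGTAA, bound by Dbp and Nfil3, in 0.71%, and the core TAGGTCA or TGGGTCA of the ROR element in 4.67%. Among the members, Cry1 held an E-box, Per2 a D-box, Per3 a pair of D-boxes and Dbp a pair of ROR cores, none of which overlapped another. The windows of Bmal1, Clock, Npas2, Nfil3, Nr1d1 and Nr1d2 held none of these letters. As the annotated gene begins upstream of the canonical start, the windows of Bmal1, Npas2, Cry1 and Nfil3 lie inside the gene. Clock elements outside these windows were not searched. Each stretch is 30 bases, 5′ to 3′ on the strand of its gene, with the element in capitals. The stretches of Cry1 and Dbp and the first of Per3 lie within annotated exons of other transcripts, and those of Per2 and the second of Per3 lie outside any exon.
Cry1, E-box 29 bases before the start, chr10:85020961-85020990, minus strand: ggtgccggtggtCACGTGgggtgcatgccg
Per2, D-box 125 bases before, chr1:91387153-91387182, minus strand: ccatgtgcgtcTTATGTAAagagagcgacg
Per3, D-box 187 bases before, chr4:151129309-151129338, minus strand: cgacccgcgcgTTATGTAAggtactcgggg
Per3, D-box 140 bases before, chr4:151129262-151129291, minus strand: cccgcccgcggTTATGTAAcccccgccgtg
Dbp, ROR core 234 bases before, chr7:45354267-45354296, plus strand: ttggcccgaagTGGGTCAcggtcccgcctc
Dbp, ROR core 189 bases before, chr7:45354312-45354341, plus strand: ttggccaaataTAGGTCAgtgtcccgcctt

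Per length of transcript, the order of the 10 genes differed between groups. In CPM per kb of the longest annotated transcript, Npas2 was highest in SPF mice, at 4.38 ± 0.228 on Milli-Q and 4.15 ± 0.239 on zinc (SD). In germ-free mice Nr1d1 was highest, at 10.9 ± 2.33 on Milli-Q and 8.89 ± 2.55 on zinc, and Per2 was lowest, at 0.962 ± 0.198 and 0.741 ± 0.122. After antibiotics the highest was Nr1d1 on Milli-Q, at 5.59 ± 2.87, and Bmal1 on zinc, at 3.30 ± 0.673. Dbp was lowest in SPF mice on Milli-Q and in both antibiotic-treated groups, and Per3 in SPF mice on zinc. Most neighbours in these orders differed by less than the larger of their SDs. Among the steps above it were those from Nr1d1 to Nr1d2 on Milli-Q and from Nr1d2 to Bmal1 on both waters in germ-free mice. In SPF mice they were the step from Nfil3 to Per3 on Milli-Q and that from Nr1d1 to Dbp on zinc. Dbp had only 3 to 64 counts per library, so its values carry the largest counting error of the set. Every other member had at least 10 counts in each library.

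**Figure D1:**
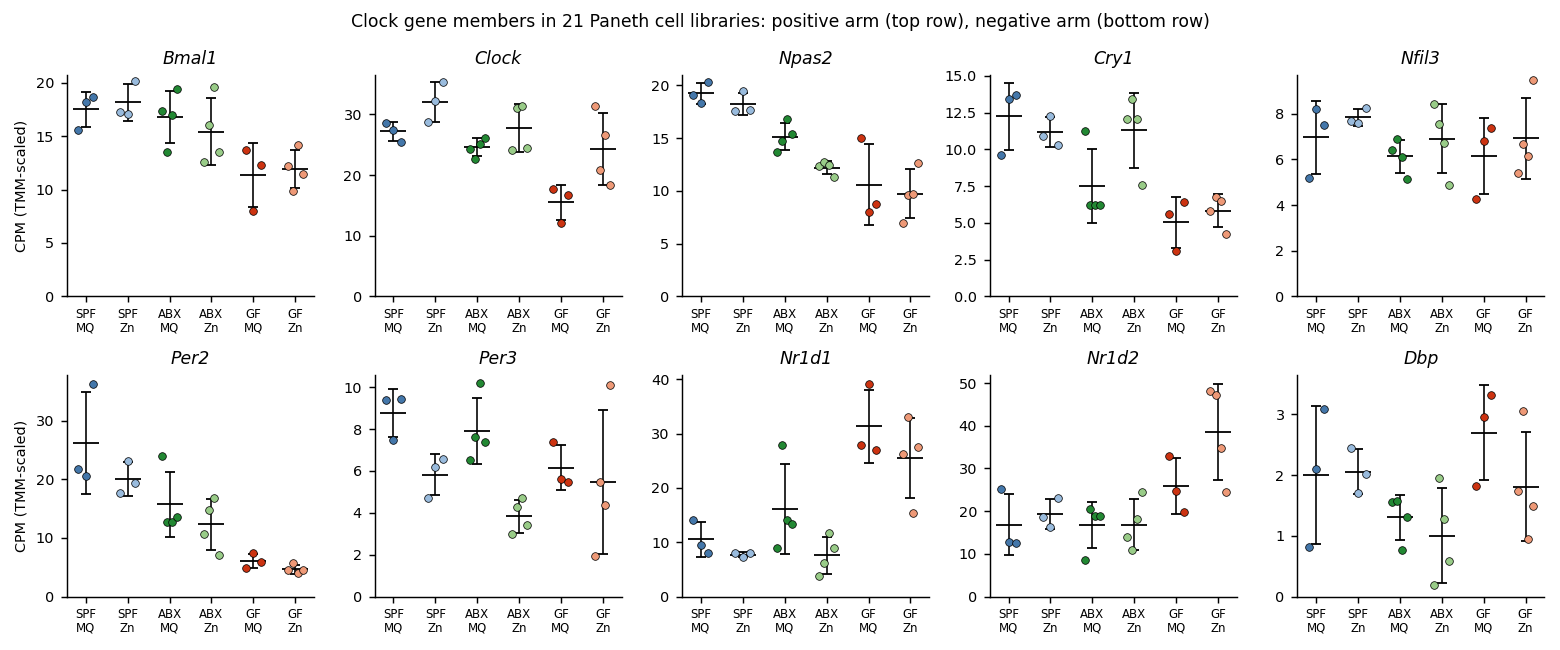
Level of each of the 10 clock genes (CPM, TMM-scaled, linear axis from 0) in every library, by group, with the positive arm in the top row and the negative arm in the bottom row. Points are libraries and bars are mean ± SD (n = 3 for SPF MQ, SPF Zn and GF MQ, n = 4 for the others). All 7 germ-free libraries lie below all 6 SPF libraries for Per2 and above all 6 for Nr1d1.

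The widest difference between groups was that of Per2, the period protein that carries repression into the nucleus. Per2 (ENSMUSG00000055866, chr1:91343700-91387069, minus strand, GRCm39) was at 21.7, 20.6 and 36.2 CPM in SPF mice on Milli-Q and at 17.6, 23.2 and 19.4 CPM on zinc. In germ-free mice it was at 4.92, 7.40 and 5.89 CPM on Milli-Q and at 4.45, 5.79, 4.01 and 4.46 CPM on zinc. The highest germ-free library was therefore far under the lowest SPF library. Antibiotic-treated mice lay between them, at 24.0, 12.7, 12.7 and 13.6 CPM on Milli-Q and at 10.7, 14.8, 16.8 and 7.05 CPM on zinc. The first of these libraries was within the SPF range, and the last was within the germ-free range. Germ-free minus SPF, the log2 fold change was −2.12 ± 0.31 on Milli-Q (SE, 4.33-fold lower) and −2.09 ± 0.29 on zinc (4.26-fold lower).

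Nr1d1, which encodes REV-ERBα, was different in the opposite direction. Nr1d1 (ENSMUSG00000020889, chr11:98658752-98666188, minus strand, GRCm39) was at 14.2, 9.45 and 7.98 CPM in SPF mice on Milli-Q and at 7.99, 7.25 and 7.96 CPM on zinc. Germ-free libraries held 28.0, 39.1 and 27.0 CPM on Milli-Q and 26.3, 33.0, 15.5 and 27.5 CPM on zinc, without overlap with SPF. After antibiotics the Milli-Q libraries ranged from 8.96 to 28.0 CPM and the zinc libraries from 3.72 to 11.7 CPM, so 1 antibiotic-treated library, on Milli-Q, reached the germ-free range. The log2 fold change of germ-free over SPF was 1.58 ± 0.36 on Milli-Q (2.99-fold) and 1.73 ± 0.35 on zinc (3.31-fold). Nr1d1 overlaps 3173 bases of Thra, a thyroid hormone receptor gene on the other strand with a mean of 34.7 CPM, and no source used here says whether counting was by strand. Thra differed by −0.23 ± 0.18 on Milli-Q and −0.13 ± 0.17 on zinc in the same comparisons (edgeR adjusted p = 0.366 and 0.683).

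Because Per2 and Nr1d1 were placed in the same arm here but differed in opposite directions, their ratio within a library was also read. The scaling factor of the library cancels in it apart from the prior count of 2. Log2 of Nr1d1 over Per2, both in CPM, was 2.17 to 2.47 in the germ-free Milli-Q libraries and 1.91 to 2.59 in those on zinc. In SPF mice it was −2.16 to −0.61 on Milli-Q and −1.66 to −1.13 on zinc. Antibiotic-treated mice spanned −1.41 to 1.14 on Milli-Q and −1.49 to 0.34 on zinc. All 7 germ-free libraries were thus above the 14 others, and the antibiotic-treated mice reached from within the SPF range to above it, short of the germ-free range.

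**Figure D2:**
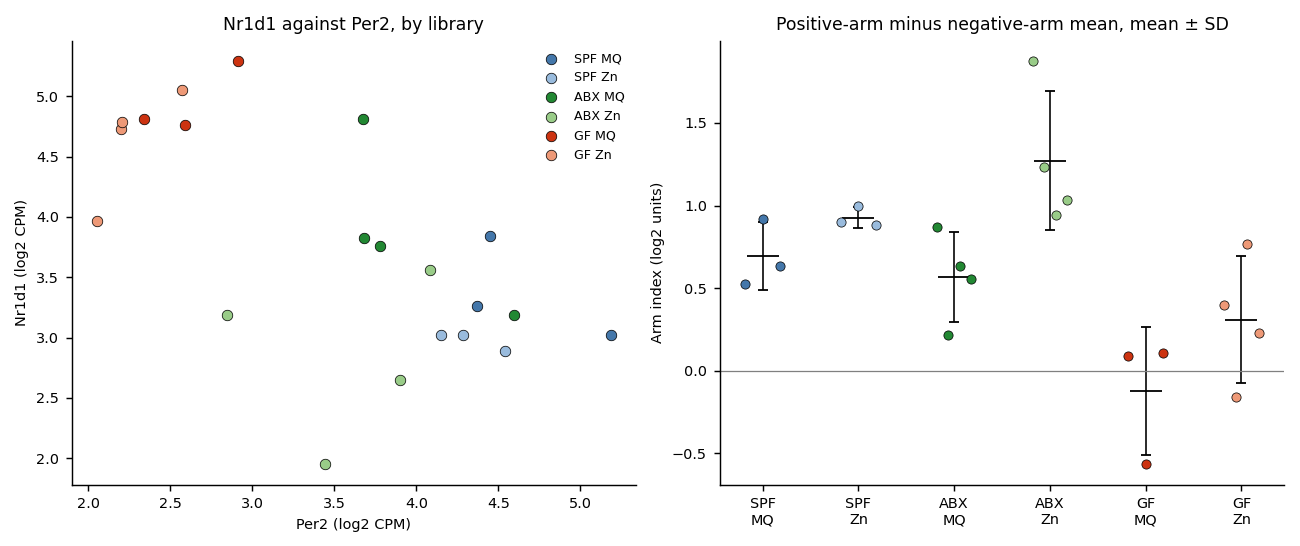
Left, Nr1d1 against Per2 in log2 CPM, one point per library, coloured by group. Right, arm index of each library (mean log2 CPM of the 5 positive-arm genes minus that of the 5 negative-arm genes) with mean ± SD of the group. The germ-free libraries sit at high Nr1d1 and low Per2. The group mean of the arm index is lowest in germ-free mice on Milli-Q and highest in antibiotic-treated mice on zinc.

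Nr1d2, the paralog of Nr1d1 that encodes REV-ERBβ, was higher in germ-free mice as well, but with overlap on Milli-Q. Nr1d2 (ENSMUSG00000021775, chr14:4230545-4266624, plus strand, GRCm39) was at 25.1, 12.8 and 12.6 CPM in SPF mice on Milli-Q against 32.9, 24.7 and 19.9 CPM in germ-free mice. On zinc, 18.7, 16.2 and 23.1 CPM in SPF stood against 48.2, 47.1, 34.7 and 24.4 CPM in germ-free mice, and these groups did not overlap. The log2 fold changes were 0.62 ± 0.33 and 0.99 ± 0.31. Without SPF Milli-Q replicate 1, the SPF library with the highest Nr1d2 and Nr1d1, the value on Milli-Q was 0.99.

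The remaining negative-arm genes, Per3 and Dbp, did not share a direction. Per3 (ENSMUSG00000028957, chr4:151081373-151129140), a period gene regarded as dispensable for the core rhythm, was 7.45 to 9.43 CPM in SPF and 5.46 to 7.39 CPM in germ-free mice on Milli-Q, a log2 fold change of −0.51 ± 0.33. On zinc the difference was −0.05 ± 0.31, as the germ-free libraries spread from 1.94 to 10.1 CPM. Dbp (ENSMUSG00000059824, chr7:45354512-45359627), an activator of output genes, gave 0.41 ± 0.55 on Milli-Q and −0.17 ± 0.54 on zinc. Dbp overlaps 737 bases of Sphk2, a sphingosine kinase gene on the other strand at a mean of 46.3 CPM, which is far more abundant than Dbp itself. Sphk2 differed by 0.42 ± 0.16 on Milli-Q and −0.05 ± 0.15 on zinc (edgeR adjusted p = 0.0561 and 0.884), and its part in the Dbp values was not tested.

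In the positive arm, Bmal1, Clock, Npas2 and Cry1 were lower in germ-free than in SPF mice on both waters. Cry1, a cryptochrome that represses the Bmal1 pair, differed most. Cry1 (ENSMUSG00000020038, chr10:84967560-85021252), with the E-box shown above, was at 9.61, 13.4 and 13.7 CPM in SPF mice on Milli-Q and at 5.57, 3.11 and 6.43 CPM in germ-free mice. On zinc it was at 10.9, 12.3 and 10.3 CPM against 5.81, 6.78, 6.49 and 4.25 CPM. Neither pair of groups overlapped, and the log2 fold changes were −1.26 ± 0.28 and −0.94 ± 0.26.

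Npas2 (ENSMUSG00000026077, chr1:39232705-39402323), a substitute for Clock in the activator, was at 19.1, 18.4 and 20.4 CPM in SPF mice and 15.0, 7.99 and 8.78 CPM in germ-free mice on Milli-Q (−0.86 ± 0.20). On zinc it was at 17.6, 19.5 and 17.7 CPM against 6.97, 9.62, 9.67 and 12.6 CPM (−0.89 ± 0.18). Antibiotic-treated mice were intermediate, at 13.7 to 16.8 CPM on Milli-Q and 11.3 to 12.8 CPM on zinc. Npas2 was the one positive-arm gene whose antibiotic-treated libraries all lay under the SPF libraries on both waters. The log2 fold changes of antibiotics over SPF were −0.35 ± 0.17 and −0.58 ± 0.17.

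Bmal1 (ENSMUSG00000055116, chr7:112806152-112914735), the obligate partner of the activator, was at 15.6, 18.2 and 18.7 CPM in SPF mice and 13.7, 7.99 and 12.3 CPM in germ-free mice on Milli-Q (−0.62 ± 0.20). On zinc the values were 17.3, 17.1 and 20.2 CPM against 12.2, 9.84, 14.2 and 11.5 CPM (−0.61 ± 0.19). Neither pair of groups overlapped. Clock (ENSMUSG00000029238, chr5:76342860-76452846), the partner of Bmal1, was at 28.6, 27.4 and 25.5 CPM against 17.6, 12.1 and 16.7 CPM on Milli-Q (−0.81 ± 0.18). On zinc, 28.7, 32.2 and 35.4 CPM in SPF overlapped with 31.4, 20.8, 26.7 and 18.3 CPM in germ-free mice (−0.42 ± 0.16). Nfil3 (ENSMUSG00000056749, chr13:53121245-53137010), a repressor of D-box genes, had log2 fold changes of −0.18 ± 0.25 on Milli-Q and −0.17 ± 0.23 on zinc, smaller than the SE on both waters.

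By count, 6 of the 10 members passed an adjusted p under 0.05 in edgeR's quasi-likelihood test for germ-free against SPF on Milli-Q, 1 higher and 5 lower. Of all 13070 genes tested, 24.2% did, 12.7% higher and 11.6% lower. Groups did not overlap for 7 members, against 38% of all genes. On zinc the count was 4, 1 higher and 3 lower, against 5.85% of all genes, 3.47% higher and 2.38% lower, and 6 members did not overlap, against 19.1%. These contrasts were known when the members were picked, so nothing is read from the counts. The median log2 fold change was −0.81 for the positive arm and 0.41 for the negative arm on Milli-Q, beside −0.03 over all genes. On zinc it was −0.61 and −0.05, beside 0.00 over all genes. The negative-arm median is the value of a single gene, Dbp on Milli-Q and Per3 on zinc. On Milli-Q the others were Per2 at −2.12, Per3 at −0.51, Nr1d2 at 0.62 and Nr1d1 at 1.58, so it does not describe the arm as a whole.

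Direction depends on scaling for part of the set. When libraries were scaled by their totals alone, the median of all genes moved to −0.99 for germ-free against SPF on Milli-Q and to −0.61 on zinc. Under that scaling Nr1d1 stayed higher in germ-free mice, by 0.63 on Milli-Q and 1.10 on zinc. Nr1d2 turned to −0.30 on Milli-Q and Dbp to −0.57, while Per2 was at −3.08. Relative to the median of all genes, Nr1d1 was at 1.62 and 1.71, Nr1d2 at 0.69 and 0.94 and Per2 at −2.09 and −2.11, on Milli-Q and zinc respectively. Leaving out any 1 library kept Per2 between −2.30 and −1.82 and Nr1d1 between 1.39 and 1.81 on Milli-Q.

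**Figure D3:**
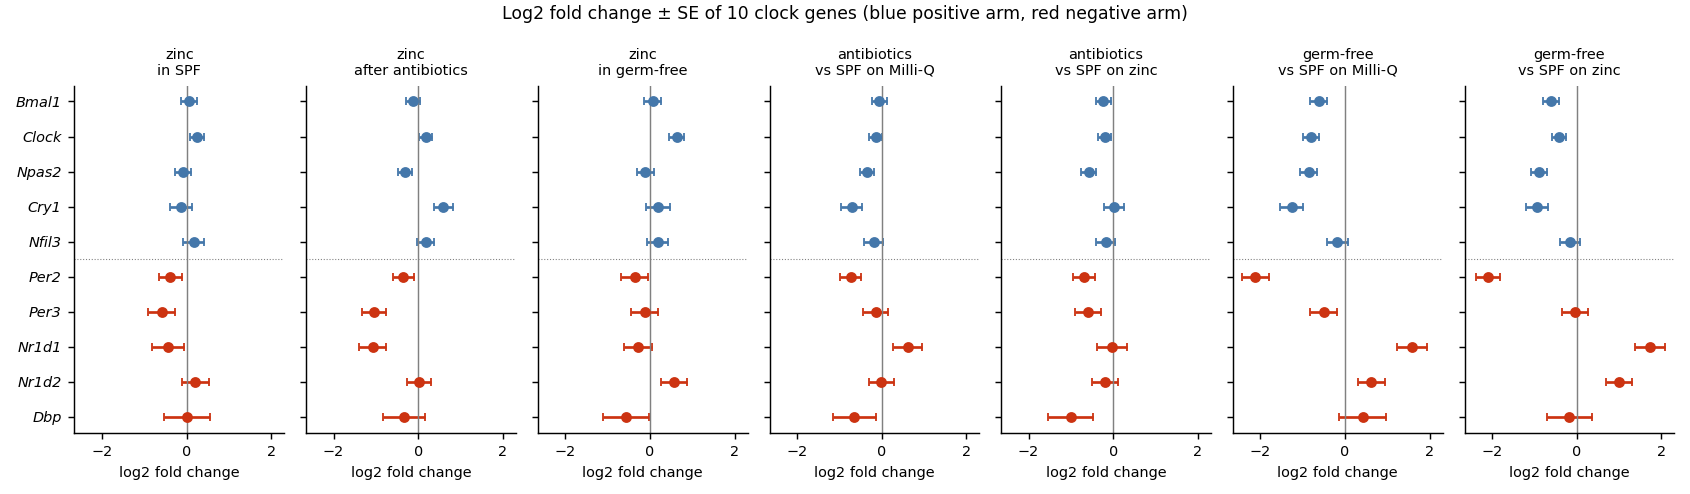
Log2 fold change ± SE of the 10 members in the 7 comparisons, positive arm in blue and negative arm in red, from the edgeR fit to all 21 libraries. In the germ-free panels Per2 (−2.12 and −2.09) and Nr1d1 (1.58 and 1.73) lie on opposite sides of 0.

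Markers of cell types moved in the same comparisons. All 7 Paneth markers were higher in germ-free mice on Milli-Q by the same test, with a summed level of 662252 to 671510 CPM against 211164 to 329024 CPM in SPF mice. Goblet markers were higher for 1 and lower for 1 of 5, at 4102 to 5376 CPM against 1980 to 3888 CPM. Enterocyte markers were lower for 1 of 7, at 137 to 658 CPM against 124 to 351 CPM. Enteroendocrine markers were lower for 3 and higher for 1 of 5, at 53.7 to 74.9 CPM against 92.5 to 177 CPM. Stem and cycling markers were lower for 3 and higher for 1 of 6, at 2153 to 3024 CPM against 2890 to 5146 CPM, and tuft markers were lower for 2 of 4, at 101 to 117 CPM against 157 to 202 CPM. On zinc, Paneth markers were higher for 3 of 7, at 473428 to 851268 CPM against 305759 to 359179 CPM, goblet markers for 2 of 5 and enteroendocrine markers for 1 of 5. Lower there were 2 of 6 stem and cycling markers, 1 of 4 tuft and 1 of 7 enterocyte markers. None of these lists had a marker at 0. These levels carry the TMM factors, which were 0.628 to 0.661 in germ-free against 1.11 to 1.38 in SPF libraries on Milli-Q. On zinc the factors were 0.522 to 0.834 against 0.996 to 1.17. As a share of counts, Defa genes took 42.9% to 44.5% against 24.2% to 33.5% on Milli-Q and 39.4% to 42.0% against 33.9% to 36.4% on zinc. Other scalings were not applied to the marker lists. The part of the markers in the clock gene values was not tested.

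For zinc, the largest differences of a member were −1.08 for Nr1d1 and −1.04 for Per3, both after antibiotics. In SPF mice none of the 10 members was called by edgeR at an adjusted p under 0.05, where 0.138% of all genes were. At an unadjusted p under 0.05 it was 0 of the 10, against 665 of 13070 genes. The largest difference was that of Per3, at 9.40, 7.45 and 9.43 CPM on Milli-Q and 4.73, 6.19 and 6.55 CPM on zinc (−0.59 ± 0.32). Enterocyte markers summed to 124 to 351 CPM on Milli-Q and 601 to 1238 CPM on zinc, with 1 of 7 called higher. Goblet markers summed to 1980 to 3888 CPM on Milli-Q and 1415 to 1806 CPM on zinc, with 1 of 5 called lower. Enteroendocrine markers summed to 92.5 to 177 CPM and 52.4 to 87.2 CPM, with 0 of 5 called by edgeR and 2 at an unadjusted p under 0.05. None of these lists had a marker at 0, and their part in these values was not tested.

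After antibiotics, zinc went with lower Per3 and Nr1d1 and with higher Cry1. Per3 was at 6.51, 7.61, 10.2 and 7.40 CPM on Milli-Q and at 2.97, 4.27, 4.72 and 3.40 CPM on zinc, without overlap (−1.04 ± 0.28). Nr1d1 was at 8.96, 28.0, 14 and 13.4 CPM against 3.72, 6.12, 11.7 and 8.95 CPM (−1.08 ± 0.31). The Nr1d1 groups overlapped, and without the Milli-Q replicate 2, at 28.0 CPM, the difference was −0.67. Thra, on the other strand, fell by 0.52 ± 0.16 on the log2 scale in this comparison (edgeR adjusted p = 0.0211). Cry1 was at 11.3, 6.23, 6.24 and 6.18 CPM against 12.1, 13.4, 12.1 and 7.57 CPM, with overlap (0.59 ± 0.23). By count, 2 of the 10 members were called, both lower, where 21.7% of all genes were. The comparisons of zinc share their Milli-Q or zinc libraries with those of microbiome context, so they are not independent of them.

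In germ-free mice, Clock was the member with the clearest zinc difference, at 17.6, 12.1 and 16.7 CPM on Milli-Q and 31.4, 20.8, 26.7 and 18.3 CPM on zinc (0.63 ± 0.17). The groups did not overlap, although by a narrow margin. Clock shares 16020 bases with Tmem165, a Golgi membrane protein gene on the other strand, which rose by 0.59 ± 0.18 in the same comparison (edgeR adjusted p = 0.0420). Nr1d2 differed by 0.58 ± 0.31, with overlap, and the other 8 members by no more than 0.57 in either direction. Clock alone was called, 1 of 10 where 11.4% of all genes were, and its difference was 0.49 to 0.74 when each library was left out in turn.

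The zinc effects of the 3 contexts were set against each other by the difference of their log2 fold changes. For Cry1 it was 0.73 ± 0.34 between antibiotic-treated and SPF mice (95% interval 0.02 to 1.43, from the t distribution of edgeR's test). Between germ-free and antibiotic-treated mice it was 0.92 ± 0.43 for Per3 (0.04 to 1.80). All other intervals of the 10 members included 0. These intervals are not adjusted for the number of genes or pairs, so nothing is read from those that exclude 0. Over all genes, edgeR's test of these differences called 0% for antibiotic-treated against SPF and 0% for germ-free against SPF mice. It called 0.207% for germ-free against antibiotic-treated mice. In the same order, 2418, 1741 and 2140 of 13070 genes had an unadjusted p under 0.05.

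Antibiotics against SPF gave Cry1 at −0.71 ± 0.24, Per2 at −0.73 ± 0.25 and Nr1d1 at 0.61 ± 0.33 on Milli-Q. None of the 10 members was called by edgeR, where 0.199% of all genes were. At an unadjusted p under 0.05 it was 2 of the 10, against 1062 of 13070 genes. The value of Per2 was −0.42 without SPF replicate 3 and that of Nr1d1 was 0.21 without antibiotics replicate 2. On zinc, 1 of the 10 was called, Npas2, where 8.97% of all genes were. Per2 differed by −0.70 ± 0.26 there, without overlap, and Dbp by −1.01 ± 0.53. Enterocyte markers were lower for 6 of 7 in antibiotic-treated mice on zinc, at 164 to 321 CPM against 601 to 1238 CPM, and goblet markers were higher for 4 of 5, at 3091 to 4944 CPM against 1415 to 1806 CPM. Neither list had a marker at 0, and their part was not tested.

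The arm index, the mean log2 CPM of the positive arm minus that of the negative arm, summarised the set by library. It was 0.69 ± 0.20 in SPF mice on Milli-Q (SD, n = 3) and 0.93 ± 0.06 on zinc (n = 3). In germ-free mice it was −0.12 ± 0.39 on Milli-Q (n = 3) and 0.31 ± 0.38 on zinc (n = 4). After antibiotics it was 0.57 ± 0.27 on Milli-Q (n = 4) and 1.27 ± 0.42 on zinc (n = 4). By their means the germ-free groups were thus lowest and the antibiotic-treated zinc group highest, but libraries overlapped. Germ-free mice on zinc ran from −0.16 to 0.76, into SPF mice on Milli-Q at 0.53 to 0.92. Antibiotic-treated mice on zinc ran from 0.94 to 1.88, into SPF mice on zinc at 0.88 to 1.00. The library at 1.88, antibiotics zinc replicate 1, had 3 counts of Dbp. As mean fitted log2 fold change of the positive arm minus that of the negative arm, the difference was −0.74 and −0.69 for germ-free against SPF on Milli-Q and zinc. It was 0.29, 0.66 and 0.35 for zinc in SPF, antibiotic-treated and germ-free mice, and −0.11 and 0.27 for antibiotics against SPF on Milli-Q and zinc. The index averages over opposite directions within the negative arm. Over the 21 libraries its Pearson r was −0.94 with Nr1d1, −0.61 with Dbp, −0.55 with Nr1d2 and −0.31 with Per3, but 0.43 with Per2. These r are descriptive, since each gene is part of the index and the libraries share groups.

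Mice of one group also differed among themselves. Antibiotic-treated Milli-Q replicate 1 held more Cry1 (11.3 CPM) and Per2 (24.0 CPM) than the other 3 of its group, at 6.18 to 6.24 and 12.7 to 13.6 CPM. The same library held less Nr1d1 (8.96 against 13.4 to 28.0 CPM) and less Nr1d2 (8.66 against 18.8 to 20.5 CPM). In SPF mice on Milli-Q, replicate 1 had the lowest Bmal1, Cry1 and Nfil3 and the highest Nr1d1 and Nr1d2 of the 3. That replicate also had the highest Clock (28.6 CPM), a positive-arm gene, and the lowest Dbp (0.818 CPM), a negative-arm gene. In these libraries, named for their values, the spread thus ran in part along the same genes as the differences between groups.

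To separate the spread within groups from the groups themselves, each gene's log2 CPM was centred on its group mean and correlated with that of Bmal1 over the 21 libraries. Clock gave Pearson r = 0.71 (permutation test with labels shuffled within groups, two-sided p = 0.00496, Benjamini-Hochberg adjusted over 9 genes 0.0446). Its Spearman rho was 0.76 (permutation p = 0.00170, adjusted 0.0153). Without the 2 libraries farthest from the median of Bmal1, germ-free Milli-Q replicate 2 and antibiotics Milli-Q replicate 2, r was 0.60 with an adjusted permutation p of 0.515. Leaving out each library in turn gave r of 0.60 to 0.81, lowest without germ-free Milli-Q replicate 2, and the adjusted permutation p was above 0.05 for 14 of the 21 libraries. The positive r thus held in each case and its call did not. The other 8 genes gave r between −0.28 for Nr1d1 and 0.47 for Cry1, with adjusted permutation p of 0.612 to 0.729, so none passed with TMM factors. With library totals as scaling, Npas2 (r = 0.65) and Cry1 (r = 0.66) passed, each at an adjusted permutation p of 0.0282. The r of Bmal1 with all other genes was not computed, so these r have no background beside them.

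Of genes outside the set, at a mean of at least 5 CPM, 9346 were ranked by their Pearson r with the arm index over the 21 libraries. The highest were Nudt5 (0.89), a nucleotide sugar hydrolase gene, Dtl (0.87), a substrate adaptor of a ubiquitin ligase active in S phase, and Septin11 (0.87), a cytoskeletal GTPase gene. The lowest were Hps4 (−0.88), a gene of lysosome-related organelles, Cnppd1 (−0.88) and Pdk2 (−0.87), a kinase that inhibits pyruvate dehydrogenase. Dtl was at 9.38 ± 2.89 CPM in germ-free mice on Milli-Q and 28.9 ± 4.18 CPM in antibiotic-treated mice on zinc, and Pdk2 at 72.0 ± 10.7 and 28.7 ± 3.38 CPM. These are the groups at either end of the index, so the r values largely describe groups. They are given with no p, as libraries of one group share treatment and composition.

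Another 31 clock genes were taken as a wider list, chosen with earlier results of these data known, of which 28 passed the filter. Rorb and Bhlhe41 had 1 count each over all libraries and Hlf had 88. The list held other transcription factors of the loop, enzymes that modify or degrade clock proteins, and output genes that cycle in many tissues. For germ-free against SPF on Milli-Q, 9 of the 28 passed an adjusted p under 0.05, 4 higher and 5 lower, where 24.2% of all genes did. On zinc 4 of 28 passed, 1 higher and 3 lower, where 5.85% of all genes did.

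Among the other factors of the loop, Cry2 fell in germ-free mice on both waters. Cry2, the other cryptochrome gene, was at 7.77, 6.79 and 7.74 CPM in SPF mice on Milli-Q and at 4.79, 2.22 and 2.68 CPM in germ-free mice (−1.20 ± 0.27, edgeR adjusted p = 0.00253). On zinc the change was −1.03 ± 0.25 (edgeR adjusted p = 0.0169), a call lost without SPF replicate 2 and with only the groups compared. Ciart, a repressor of the Bmal1 pair, rose on Milli-Q by 2.00 ± 0.53, from 0.338 to 0.919 CPM in SPF to 2.22 to 3.32 CPM in germ-free mice (edgeR adjusted p = 0.00923). That call was lost without SPF replicate 3 (edgeR adjusted p = 0.0524) and with library totals as scaling. Per1, by contrast with Per2, differed by −0.04 ± 0.35 on Milli-Q, between SPF values of 11.1 to 53.8 CPM and germ-free values of 30.3 to 40.9 CPM, and was looked up after the values of Per2 were seen.

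Of the 12 enzymes, 4 passed on Milli-Q, 2 higher and 2 lower, and of the 8 outputs 2 passed, 1 higher and 1 lower. Timeless, a replication fork gene related to an insect clock gene, fell by 0.70 ± 0.24 on Milli-Q (edgeR adjusted p = 0.0358) and by 1.02 ± 0.23 on zinc (edgeR adjusted p = 0.0129) on the log2 scale. The Milli-Q call of Timeless was lost without SPF replicate 3 or any 1 of the 3 germ-free libraries, and the zinc call without SPF replicate 2 or with only the groups compared. Csnk2b, a casein kinase 2 subunit, rose by 0.49 ± 0.14 on zinc (edgeR adjusted p = 0.0373) but its call was lost in 4 of 9 other settings, the replicate block (edgeR adjusted p = 0.0685) and library totals among them, and without SPF replicate 2 or 3 or germ-free replicate 2 or 4. Among outputs, Tspan4, a tetraspanin gene, rose by 1.33 ± 0.34 on Milli-Q (edgeR adjusted p = 0.00757), a call lost with library totals (0.36) and with no filter on low counts. Nampt, the rate-limiting enzyme of NAD salvage, fell there by 0.78 ± 0.20 on the log2 scale (edgeR adjusted p = 0.00737). The 3 remaining calls on Milli-Q, Csnk2a1 and Csnk2b higher and Fbxw11 lower, lie outside the 6 largest and are named after their values were seen. With library totals as scaling, Csnk2a1 was at −0.38 and Csnk2b at −0.26 on Milli-Q, or 0.60 and 0.72 relative to the median of all genes under that scaling.

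**Figure D4:**
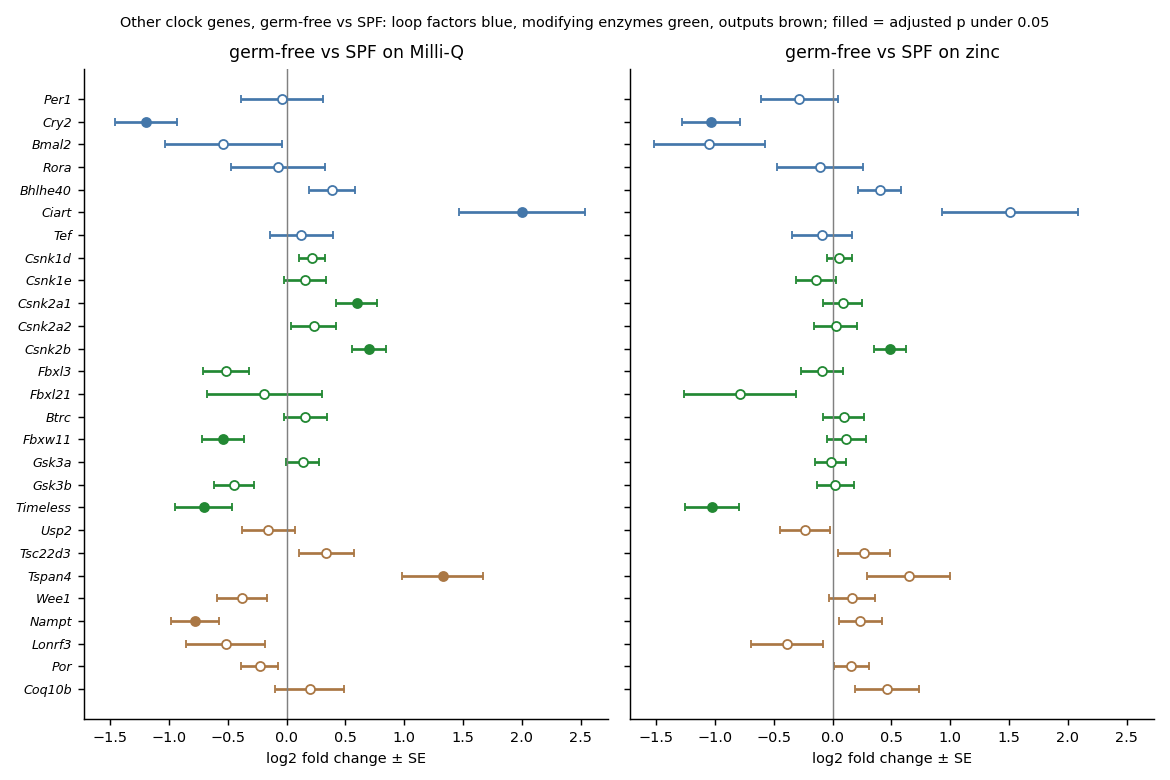
Log2 fold change ± SE of 27 other clock genes in germ-free against SPF mice on Milli-Q and on zinc, from the edgeR fit. Filled points passed an adjusted p under 0.05, 8 on Milli-Q and 3 on zinc, and Ciart was highest on Milli-Q.

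Nampt rose with zinc in antibiotic-treated and in germ-free mice. After antibiotics Nampt was at 24.1, 15.5, 24.8 and 24.7 CPM on Milli-Q and at 37.4, 29.6, 36.9 and 47.0 CPM on zinc, and it rose by 0.76 ± 0.16 on the log2 scale (edgeR adjusted p = 0.00397). In germ-free mice it rose by 0.85 ± 0.20, from 13.8 to 15.8 CPM to 23.2 to 35.4 CPM (edgeR adjusted p = 0.0130), a call lost without the germ-free Milli-Q replicate 2. In all, 5 of 28 were called after antibiotics, 2 higher and 3 lower, where 21.7% of all genes were. Besides Nampt these were Fbxw11, a ubiquitin ligase subunit (0.41 ± 0.15), Bmal2 (−1.45 ± 0.43), Tef, a D-box activator (−0.74 ± 0.24), and Csnk1e, a kinase of Per proteins (−0.65 ± 0.15), with edgeR adjusted p of 0.00567 to 0.0494. Bmal2 had only 5 to 23 counts per library in antibiotic-treated mice on zinc. The call of Fbxw11 was lost in 5 of 9 other settings and without any of 7 of the 8 libraries. Those of Bmal2 and Tef were each lost without any of 3 libraries, antibiotics Milli-Q replicate 2 and zinc replicate 4 among them, and those of Csnk1e and Nampt were kept in all of these. In germ-free mice 4 of 28 were called, 3 higher and 1 lower, where 11.4% of all genes were. The others were Fbxw11 (0.70 ± 0.17), Gsk3b, a kinase (0.53 ± 0.16), and Tspan4 (−1.04 ± 0.33), with edgeR adjusted p of 0.0167 to 0.0452. None of these 4 calls was kept with only the groups compared. The count was 0 when germ-free Milli-Q replicate 2 was left out and 8 without germ-free zinc replicate 4. In SPF mice 0 of 28 were called by edgeR, DESeq2 or limma-voom, with 0 at an unadjusted p under 0.05.

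Several loop factors were lower after antibiotics on zinc. Of the 28, 7 were called against SPF, 1 higher and 6 lower, where 8.97% of all genes were. Of the 8 loop factors tested, 5 fell, among them Bmal2 (−1.67 ± 0.46), Per1 (−1.19 ± 0.33), Tef (−1.13 ± 0.25) and Cry2 (−0.78 ± 0.23). The output Tsc22d3, a glucocorticoid-induced gene, fell by 0.81 ± 0.22 and Nampt rose by 0.73 ± 0.18 on the log2 scale. Per1 was at 27.7, 40.5 and 37.7 CPM in SPF mice on zinc and at 15.0, 11.4, 20.6 and 14.9 CPM after antibiotics. The edgeR adjusted p was 0.00937 for Tef and 0.0162 to 0.0386 for the other genes named here. The call of Tef was kept in all alternatives, and that of Cry2 was lost without any 1 of the 7 libraries. Those of Per1 and Tsc22d3 were each lost for 5 of the 7 libraries left out, that of Bmal2 for 4 and that of Nampt for 3. With library totals as scaling, the calls of Per1, Tsc22d3, Bmal2 and Cry2 were lost as well. The count was 1, Tef, without SPF zinc replicate 2. On Milli-Q, 0 of 28 were called by edgeR, where 0.199% of all genes were, 0 by limma-voom and 1 by DESeq2. At an unadjusted p under 0.05 in edgeR it was 5 of 28, against 1062 of 13070 genes. By edgeR's test, 0 of the 28 genes passed for a difference of the zinc effect between contexts, with 4, 3 and 2 at an unadjusted p under 0.05 in the 3 pairs of contexts.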

How the data were processed

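Counts per gene were deposited as a table of raw read counts for the 21 libraries. Per the labels, reads were checked with FastQC 0.12.0 and aligned with STAR 2.7.0a to mm39, and the library kit was strand-specific. The counting tool and its strand setting were not given in the sources used here, so genes overlapping on opposite strands could share counts. From the counts, edgeR 4.0.16 fitted 1 mean per group to all 21 libraries (R 4.3.3, TMM factors, filterByExpr, 13070 of 55414 identifiers kept), and its quasi-likelihood test gave Benjamini-Hochberg adjusted p-values over all genes tested. Log2 CPM used a prior count of 2. The members and lists were chosen with earlier results of these data known, so the differences of members between groups are printed without a p. Calls of members in edgeR's test of all genes are given only beside the share of all genes. Their correlation within groups was tested by permutation. Other clock genes are named where called, at most the 6 with the largest log2 fold change per comparison, and genes like the arm index are the 3 highest and 3 lowest by r. Library totals of 9888174 to 16896714 counts limit precision for genes of few counts. Over all libraries Ciart had 252, Fbxl21 452, Tspan4 485, Dbp 489 and Bmal2 533 counts. Alternatives were DESeq2 1.42.0, limma 3.58.1 with voom, other scalings and filters, a replicate block, fits to the groups compared, and each library left out. Replicates of a group all differed by more than sampling noise. Promoter letters came from GRCm39. Scripts were tested on simulated data, and figures were drawn with matplotlib 3.10.9. The values of 1 gene of the wider clock list are not reported here, though it is among the genes counted.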

Additional observations from a re-analysis of the deposited data

Results flagged for a closer look

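In groups of 4, a library stood apart from the other 3 by Dixon's criterion for 6 of 78 groups of values, and chance sets apart about 1 in 20. Antibiotics Milli-Q replicate 1 did so for Cry1 (3.51 log2 CPM, others 2.66 to 2.67), for Per2 (4.60, others 3.68 to 3.78) and for Nr1d2 (3.14, others 4.25 to 4.37). Tspan4 was at −0.043 log2 CPM in antibiotics Milli-Q replicate 4 (others 0.58 to 0.67). Nampt was at 3.97 log2 CPM in antibiotics Milli-Q replicate 2 (others 4.60 to 4.64) and at 5.15 in germ-free zinc replicate 1 (others 4.54 to 4.63). The hour of collection of these animals is not given, and its part was not tested.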

How the results depend on the processing

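All 111 recomputed arm differences moved by less than 0.325, the pooled within-group SD of the arm index. A scaling factor largely cancels in this difference, so other scalings could move it little. The limit is wider than the main values of −0.11 and 0.27 for antibiotics and 0.29 for zinc in SPF mice. A change of direction there would have stayed within it, so nothing is read from this count. The number of other clock genes called moved more. With library totals it was 2 for zinc in germ-free mice, 2 for antibiotics on zinc, 23 for germ-free on Milli-Q and 17 for germ-free on zinc. With only the groups compared it was 0 for zinc in germ-free mice and 1 for germ-free on zinc. For antibiotics on Milli-Q it was 3 with no filter and 1 by DESeq2. Leaving out 1 library gave 2 to 5 for zinc after antibiotics, 0 to 8 for zinc in germ-free mice, 0 to 2 for antibiotics on Milli-Q, 1 to 5 for antibiotics on zinc, 6 to 10 for germ-free on Milli-Q and 1 to 4 for germ-free on zinc. Library totals, with which the median of all genes was −0.99 and −0.61 in these comparisons, reversed genes that were higher in germ-free mice. On Milli-Q these were Bhlhe40 (−0.56), Btrc (−0.81), Coq10b (−0.77), Csnk1d (−0.74), Csnk1e (−0.81), Csnk2a1 (−0.38), Csnk2a2 (−0.72), Csnk2b (−0.26), Gsk3a (−0.83), Tef (−0.83) and Tsc22d3 (−0.58). On zinc they were Btrc (−0.54), Csnk1d (−0.57), Csnk2a2 (−0.60), Csnk2b (−0.10), Fbxw11 (−0.52) and Gsk3b (−0.60). The correlation of Clock with Bmal1 fell to r = 0.60 without the 2 farthest libraries and was 0.60 to 0.81 without single libraries, while with library totals Npas2 (0.65) and Cry1 (0.66) passed too. Over the settings other than leaving out a library, counts over all genes ran from 11 to 269 for zinc in SPF, 1445 to 3853 after antibiotics and 3 to 3157 in germ-free mice. They ran from 12 to 406 and 606 to 2640 for antibiotics on Milli-Q and zinc, and from 2388 to 9338 and 14 to 6310 for germ-free. With a library left out they were 5 to 37, 1317 to 2680, 5 to 3435, 10 to 83, 272 to 1059, 1661 to 3253 and 51 to 1573 in the same order. The causes were not tested. Same-numbered libraries did not deviate together in every pair (correlations −0.17 to 0.23), and with the replicate number as a block the arm differences were 0.27, 0.70 and 0.39 for zinc in SPF, antibiotic-treated and germ-free mice, −0.10 and 0.33 for antibiotics, and −0.76 and −0.63 for germ-free on Milli-Q and zinc. The counts of other clock genes under the block were 0, 4, 3, 0, 5, 9 and 3 in that order. The germ-free Milli-Q libraries are numbered 1, 2 and 3 in their titles and 1, 3 and 4 in the column names, so which of them share a number with another group is uncertain, and the titles were used. Depth limits Dbp, at 3 to 64 counts a library.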
